A study of Caenorhabditis elegans with 8 samples.

Results

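21ur-1430 is a Caenorhabditis elegans locus that is annotated both as a piRNA gene and as part of a microRNA hairpin. It was picked as 1 of the 9742 listed piRNAs, by its identifier in the deposited table (cel-piR-14009), because of its levels across the libraries and its place on an arm of mir-790. Its levels are therefore described here without a test. Tests were run on the 915 other listed piRNAs whose start lies within 500 kb of its own, called its neighbours, which were chosen by position.

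The question of the series is whether casein kinase II promotes the making of piRNAs. Small RNAs of whole worms were sequenced in 8 libraries, 2 each of WT, prde-1, prg-1 and kin-3. IAA (auxin, 500 µM) was in the culture of the kin-3 worms, and the worms of the other 3 genotypes were untreated. Before adaptor ligation, the RNA of every sample was incubated with PIR-1, an RNA polyphosphatase. The labels name genes but no alleles. No IAA-treated WT library was analysed here, so the kin-3 genotype and the IAA cannot be told apart. Whole worms hold germline and somatic tissue, and fewer cells of a type and less RNA per cell cannot be told apart in such samples.

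Worm piRNAs, also called 21U-RNAs, are germline small RNAs that are transcribed by RNA polymerase II from many short genes of their own. A complex that includes PRDE-1 and TOFU-4 acts at the upstream motifs of those genes, and the trimmed RNAs join the Piwi protein PRG-1, with which they silence transcripts. Casein kinase II is a protein kinase whose catalytic subunit is KIN-3. MicroRNAs are made in another way: a hairpin is cut out of a longer transcript and an arm of it is loaded onto an Argonaute of a different clade.

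The libraries differed in depth. The total used by the authors for scaling ranged from 341001 reads in kin-3 library 1 to 5608712 in prde-1 library 2, so that 1 read was worth between 0.178 and 2.93 RPM (reads per 1000000 of that total). Listed piRNAs made up 1.33% and 1.30% of the total in the WT libraries. Without 21ur-1430 they stood at 1.28% of the WT level in prde-1, while prg-1 kept 1.57% and kin-3 kept 1.59%. The 109 listed loci on other chromosomes together stood at 1.63, 1.66 and 1.69 times their WT level in the same order. Whether 2 libraries of a genotype stem from separate cultures is not in the labels. P-values here thus reflect the spread among these libraries alone, and that spread may be technical.

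The 21-nt interval of 21ur-1430 lies on the plus strand of chromosome IV, from 5566428 to 5566448 in WBcel235. It is inside the 70-nt mir-790 hairpin (5566422 to 5566491, same strand), and its 5′ end lies 6 nt downstream of the hairpin's. The hairpin carries annotated arms of 22 nt (5566427 to 5566448) and 23 nt (5566466 to 5566488). 21ur-1430 shares all 21 of its bases with the first arm: its 5′ end is 1 nt downstream of the arm's, and the 3′ ends are the same base. Whether reads of the 22-nt arm were counted at 21ur-1430 is not given in the labels or the table, and no separate value for mir-790 was analysed here. Apart from mir-790, 0 annotated genes overlap 21ur-1430. The nearest coding genes are T12E12.6, 529 bp downstream of the hairpin on the minus strand, and ari-2, 7602 bp upstream. The microRNA gene mir-228 lies 4300 bp upstream on the same strand.

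Of all listed piRNAs, 3 others overlap an annotated microRNA hairpin on the same strand. These are 21ur-5102 and 21ur-6991 on the 2 arms of mir-8198, and 21ur-10414 on an arm of mir-78, all in the large piRNA cluster of chromosome IV. Each shares 18 bases with its arm. The 5′ ends of 21ur-5102 and 21ur-10414 lie 3 nt upstream of that of the arm, and the 5′ end of 21ur-6991 lies 3 nt downstream. 21ur-1430 is thus the listed piRNA that lies wholly inside an annotated arm. 21ur-5102 and 21ur-6991 had 0 reads in all 8 libraries, and 21ur-10414 had 1 read, in WT library 1. None of the 3 passed the filter on low values (at least 1 RPM on average across the 8 libraries), so they give no test. With 0 reads, a level of up to 0.274 RPM is allowed in prde-1 and of up to 3.32 RPM in kin-3 (3 reads of the pooled total).

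**Figure D1:**
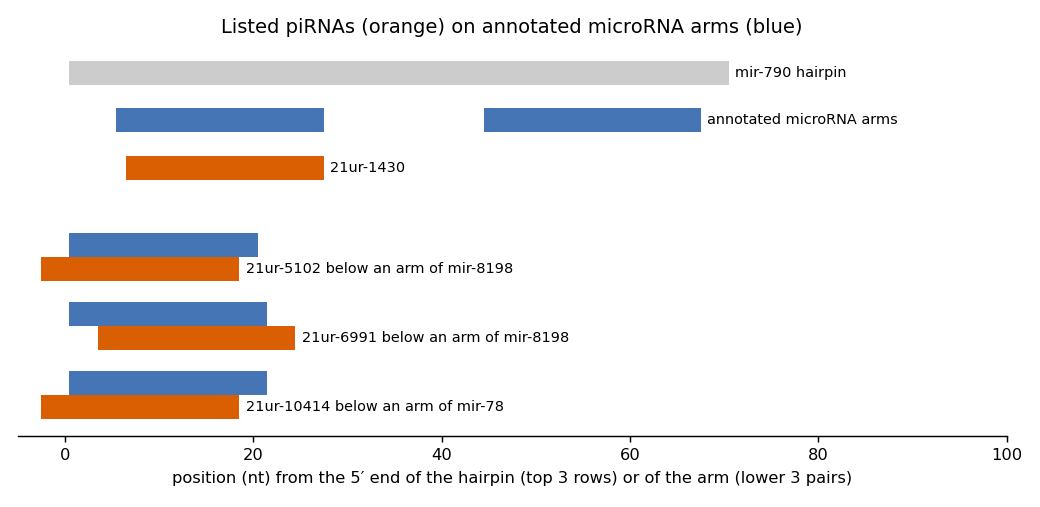
Positions in nt, counted along the RNA, of the mir-790 hairpin (grey), its annotated arms (blue) and 21ur-1430 (orange), with the 3 other listed piRNAs below the microRNA arm that each overlaps, drawn from the 5′ end of that arm. 21ur-1430 starts 1 nt inside its arm and ends with it, whereas the others are shifted by 3 nt.

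21ur-1430 was found in every library and stood far higher in prde-1 than in any other genotype. In WT it was read 16 and 7 times, which is 11.9 and 7.66 RPM. In prde-1 it was read 1161 and 1311 times, or 217.5 and 233.7 RPM. In prg-1 it was read 16 times in each library, at 16.5 and 22.9 RPM. In kin-3 it was read 2 and 14 times, at 5.87 and 24.9 RPM. Both prde-1 libraries lay above all other libraries, both prg-1 libraries lay above both WT libraries, and the kin-3 libraries lay on either side of the WT pair.

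The mean level was 225.6 ± 11.5 RPM in prde-1, 19.7 ± 4.50 in prg-1, 15.4 ± 13.5 in kin-3 and 9.79 ± 3.01 in WT (each SD, n = 2). In this order only the first step was wider than the spread within genotypes. The ranges of prg-1 and kin-3 overlap, and so do those of kin-3 and WT. Exact 95% counting intervals, which cover counting error only, ran from 6.81 to 19.4 and from 3.08 to 15.8 RPM in the WT libraries, from 205.2 to 230.4 and from 221.3 to 246.7 in prde-1, from 9.43 to 26.8 and from 13.1 to 37.1 in prg-1, and from 0.710 to 21.2 and from 13.6 to 41.8 in kin-3. Within each genotype the 2 intervals overlap. Those of prg-1 and kin-3 also overlap those of WT.

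With the reads of each genotype pooled, the ratio to WT was 22.2 in prde-1 (95% counting interval 14.7 to 35.01), 1.88 in prg-1 (1.07 to 3.36) and 1.74 in kin-3 (0.858 to 3.44). As ratios of library means the prg-1 and kin-3 values were 2.01 and 1.57. The listed loci on other chromosomes had 1.66 and 1.69 on that measure, and their part in the result was not tested. Against prg-1 the prde-1 level was 11.8 times as high (8.32 to 17.3), and against kin-3 12.7 times (7.83 to 22.3). The ratio of prg-1 to kin-3 was 1.08 (0.576 to 2.11), an interval that allows either to be the higher. In kin-3 the direction against WT rests on library 2: without it the log2 ratio of means turned from 0.65 to -0.74.

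**Figure D2:**
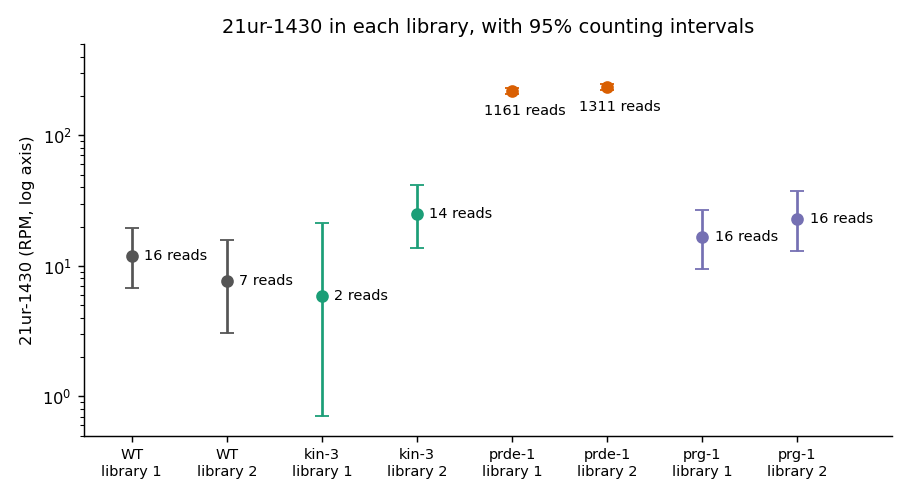
Level of 21ur-1430 in RPM (log axis) in each of the 8 libraries; points are single libraries, bars are exact 95% counting intervals, and the number of reads stands beside each point. The prde-1 libraries sit at 217.5 and 233.7 RPM, above every interval of the other libraries, whose levels run from 5.87 to 24.9 RPM.

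The place of 21ur-1430 among the listed piRNAs moved with the fall of the rest and, in prde-1, also with its own higher mean (225.6 RPM, against 9.79 in WT). In WT it held 0.0894% and 0.0588% of the reads of listed piRNAs and ranked 207 and 328 by level. In prde-1 it ranked 1 in both libraries and held 56.4% (exact Clopper-Pearson 95% interval 54.3 to 58.6) and 58.1% (56.02 to 60.1) of all listed piRNA reads. The next highest piRNA there was 21ur-10492 at 42.2 RPM in library 1 and 21ur-10824 at 45.8 RPM in library 2. In prg-1 it held 7.21% (4.18 to 11.4) and 10.3% (5.98 to 16.1), and in kin-3 2.44% (0.297 to 8.53) and 11.97% (6.70 to 19.3). In the prg-1 and kin-3 libraries it ranked from 2 to 6 (ties given the better rank), below 21ur-9719, which was highest in all 4 of them, at 71.2 to 100.02 RPM.

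The 915 neighbours give the local background. They lie on both sides (393 towards lower coordinates and 522 towards higher) and on both strands (428 plus, 487 minus). Of them 400 had a read in WT, 383 of these had none in the other genotypes, and 510 had no read in any library. Per library, 308 and 242 neighbours had a read in WT and 2 to 8 in the others. Over all 9742 listed piRNAs these numbers were 3818 and 3220, and 36 to 130, so the loss was general. The number with reads in WT alone is not given over the whole list. By WT mean 21ur-1430 ranked 8 beside them, as 7 neighbours were higher. It was thus among the higher ones in WT, at 9.79 RPM against a median of 6.61 RPM for the 35 tested neighbours. In every library of the other genotypes it was above each neighbour.

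The neighbours summed to 624.8 and 671.2 RPM in the WT libraries. In the other 6 libraries they summed to between 0.535 and 11.7 RPM, on 2 to 10 reads a library. All 6 lay below both WT libraries (exact permutation test of WT against the other 6, two-sided, p = 0.0357, the smallest that 28 splits can give). The sum was 84.8-fold lower in kin-3, 538-fold lower in prde-1 and 103-fold lower in prg-1 than in WT. With pooled reads the 95% counting intervals of these falls were 44.4 to 264, 316 to 1020 and 54.4 to 196. 2 libraries against 2 cannot give an exact p under 0.333, so these pairs are given as values. The order of the 3 genotypes rests on the scaling. The log2 ratio to WT was -9.07 for prde-1, while prg-1 had -6.69 and kin-3 had -6.41. TMM rescales libraries by a trimmed mean over the tested piRNAs. Under it the order turned: prde-1 then had -4.11, while prg-1 had -4.82 and kin-3 had -5.67. TMM takes most piRNAs as unchanged, whereas 97.8 to 98.3% of the tested ones were called lower against WT. Its factors thus take up part of the fall, and the turned order is no sound check of that in RPM. Single libraries also move the RPM ratios: the kin-3 value was -7.51 without its library 1 and -5.79 without its library 2, and the prde-1 value was -10.24 and -8.43 likewise.

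Of the neighbours, 35 passed the filter and were tested, and limma (adjusted p under 0.05) called all 35 lower in each comparison with WT. Among these, 33 had 0 reads in every library outside WT, so their own residual spread came from the WT pair alone. Their p-values do not measure a spread within kin-3, prde-1 or prg-1. Over all 695 tested piRNAs 98.3% were called lower in prde-1, while prg-1 had 98.0% and kin-3 had 97.8%, so the neighbours' share is near the background. The median log2 fold change of the 35 on the log2(RPM + 1) scale was -2.86 in kin-3 and -2.89 in both prde-1 and prg-1, beside -3.06, -3.06 and -3.04 over all tested piRNAs. Limma called 0 neighbours higher in any comparison, with 0 at an unadjusted p under 0.05 and 0 by edgeR, where 0.863% of all tested piRNAs were called higher in prde-1, while prg-1 had 0.432% and kin-3 had 0.288%. The neighbours that passed had WT means from 4.03 to 56.0 RPM and passed through WT, so a fall was favoured; the other 880 were too low to be tested, and without the filter 145 of the 405 neighbours with any read were called lower in each comparison, where 45.4% of all 4878 piRNAs with a read were called lower in prde-1 and in kin-3 and 45.3% in prg-1.

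The closest neighbours had reads in WT alone or none at all. 21ur-8478, 160 bp towards lower coordinates on the minus strand, was read 3 and 2 times in WT (2.23 and 2.19 RPM). 21ur-1860, 767 bp away on the minus strand, was read 12 and 7 times (8.94 and 7.66 RPM), which is close to the WT level of 21ur-1430. Neither had a read in the other 6 libraries. 21ur-1860 passed the filter through WT alone, so its level is given without a test. Set against 3 reads of the pooled total of each genotype, its WT mean was 30.3 times as high in prde-1, 4.62 times in prg-1 and 2.50 times in kin-3. The counting error of the WT reads is not in these ratios. 21ur-3329, at 944 bp, was read 6 and 3 times in WT and not elsewhere. On the other side, 21ur-7122 at 350 bp and 21ur-838 at 1597 bp had no read in any library, and 21ur-3581 at 1001 bp, in an intron of T12E12.6, had 1 read in each WT library only. The nearest neighbour with any read outside WT was 21ur-5477, 61282 bp away. Closer than that lie 169 neighbours, of which 73 had a read in WT (232 reads in all), beside 400 of all 915 neighbours.

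**Figure D3:**
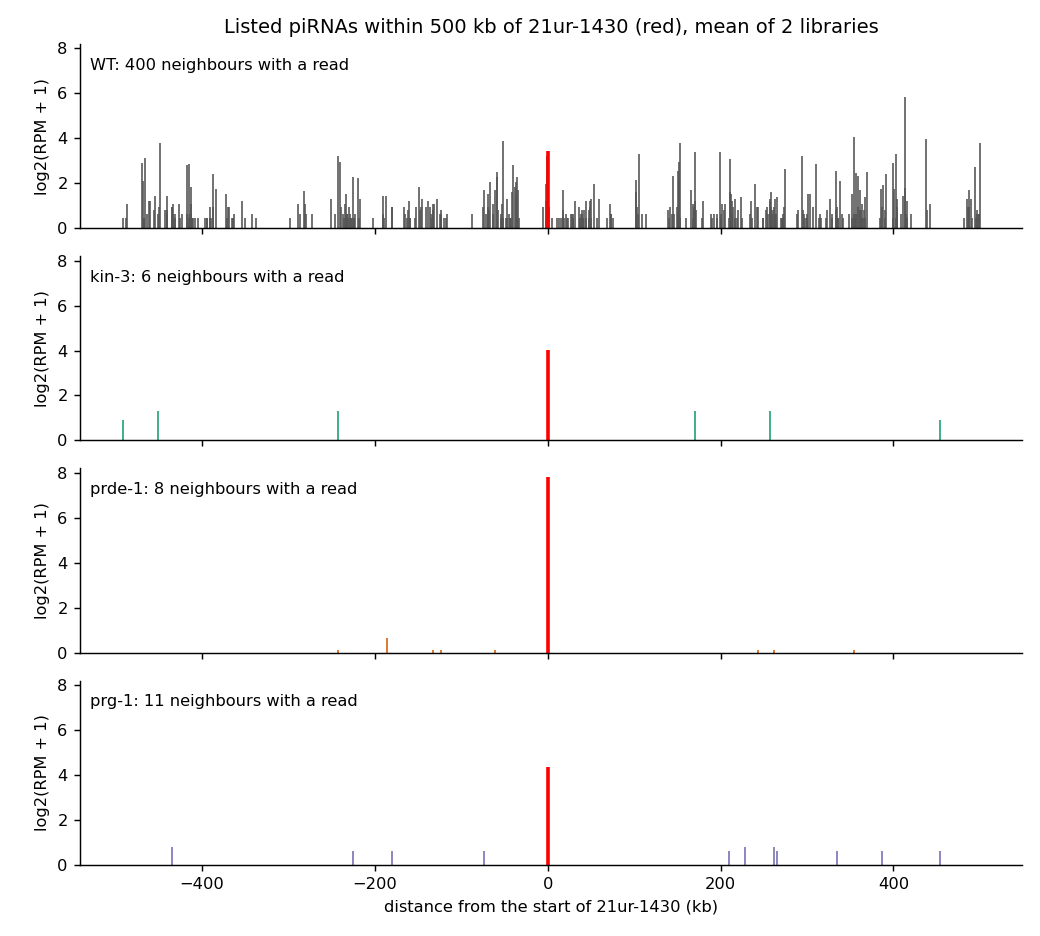
Mean level over 2 libraries, as log2(RPM + 1), of listed piRNAs with a read, by distance in kb from the start of 21ur-1430, 1 panel per genotype; each line is a piRNA and the red line is 21ur-1430. The WT panel holds 400 neighbours and the panels of prg-1, prde-1 and kin-3 hold 11, 8 and 6, whereas 21ur-1430 is present in all 4.

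The 8 neighbours with the highest WT means all had 0 reads in the other genotypes. They were picked by their WT level and passed the filter through WT alone, so they are described without a test. The highest was 21ur-5083, 413737 bp away, sense to an exon of the ncRNA gene B0350.77 and antisense within an intron of the ankyrin gene unc-44, at 71.5 and 40.5 RPM in WT. Its WT mean was 16.9 times the value of 3 reads of the pooled total in kin-3, 204 times in prde-1 and 31.2 times in prg-1, without the counting error of WT. The others were 21ur-5543 at 15.7 ± 1.08 RPM in WT (SD, n = 2), 21ur-5573 at 14.5 ± 2.66, 21ur-9747 at 13.8 ± 0.586, cel-piR-15894 at 12.9 ± 3.47, 21ur-2999 and 21ur-4620 at 12.7 ± 0.963 each and 21ur-3828 at 9.57 ± 1.95. 21ur-9747 lies in an intron of unc-5, which encodes a netrin receptor, and 21ur-5573 in an intron of unc-44 on its strand. For these 7 the WT mean was 34.9 to 57.1 times the value of 3 reads of the pooled total in prde-1. The WT level of 21ur-1430, 9.79 RPM, lies within the 9.57 to 56.0 RPM of these 8.

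Reads outside WT came from 22 neighbours, a count given without the one over all listed piRNAs. Of these, 18 had 1 read and 3 had 2 over the 6 libraries. The exception was 21ur-9599, 185855 bp away and sense to an exon of linc-36, a lincRNA gene, with 6 reads in prde-1 library 1 (1.12 RPM) and none in any other library. 21ur-1022 (12 and 7 reads in WT, 1 in prde-1 library 1, 1 in kin-3 library 1) and 21ur-9127 (15 and 7 reads in WT, 1 in kin-3 library 1), which lies antisense to an exon of linc-134, were the 2 tested neighbours among the 22. Both passed the filter through WT, and the 1 read of each in kin-3 library 1 stands at 2.93 RPM, below both WT libraries (at least 7.66 RPM). 21ur-6598, 21ur-6897, 21ur-776, 21ur-4280, 21ur-4804, 21ur-8002, 21ur-11818, 21ur-6441 and cel-piR-15832 had 1 read in 1 or 2 of the libraries outside WT.

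Within the window, 21ur-1430 went from a small share of the reads to most of them. It gave 16 of 855 window reads in WT library 1 (1.87%, exact Clopper-Pearson 95% interval 1.07 to 3.02) and 7 of 620 in library 2 (1.13%, 0.455 to 2.31). In prde-1 it gave 1161 of 1171 (99.1%, 98.4 to 99.6) and 1311 of 1314 (99.8%, 99.3 to 99.95). In prg-1 it gave 16 of 24 (66.7%, 44.7 to 84.4) and 16 of 19 (84.2%, 60.4 to 96.6). The kin-3 libraries gave 2 of 6 (33.3%, 4.33 to 77.7) and 14 of 16 (87.5%, 61.7 to 98.4). The intervals of the 2 kin-3 libraries overlap, and at 6 reads the first says little about the share.

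**Figure D4:**
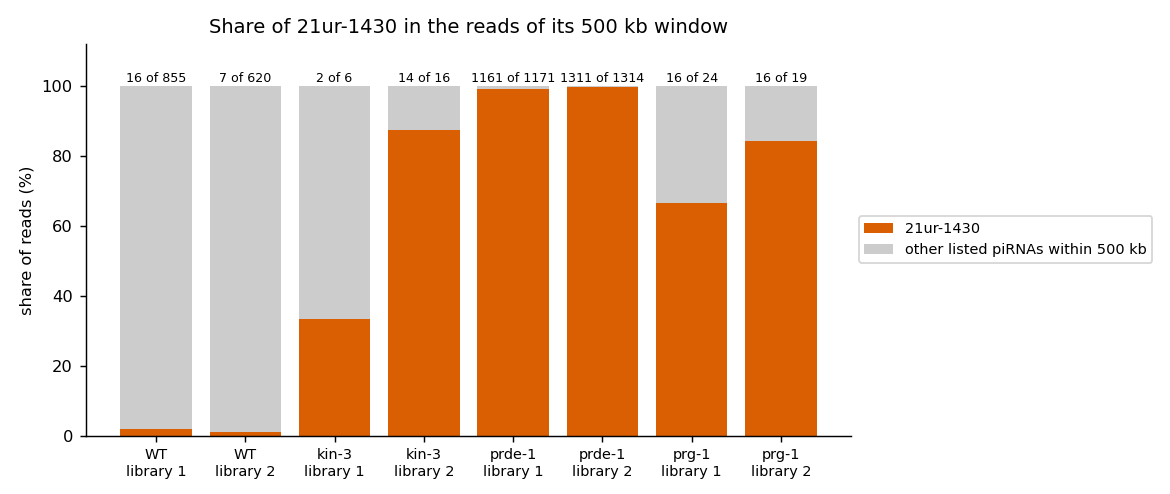
Share in percent of the reads of listed piRNAs within 500 kb that fall on 21ur-1430 (orange) and on its neighbours (grey), 1 bar per library, with the reads above each bar. The share is 1.87% and 1.13% in WT and 99.1% and 99.8% in prde-1.

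Listed piRNAs whose levels followed those of 21ur-1430 over the 8 libraries lay on other chromosomes. The measure is Pearson's r of log2(RPM + 1) over the 8 libraries, among the 694 other tested piRNAs, given as a description. The libraries share their depth between piRNAs, and the points fall into the prde-1 pair and the rest. The highest were 21ur-15587 on chromosome I (r = 0.88, Spearman's rho 0.79), 21ur-10824 on III (0.88, rho 0.55), 21ur-10492 on II (0.84, rho 0.62), 21ur-13684 on V (0.52, rho 0.48) and 21ur-12864 on II (0.49, rho 0.41). Without the prde-1 libraries r was 0.51, 0.26, -0.06, -0.37 and 0.49 over the other 6, so the likeness of 21ur-10824, 21ur-10492 and 21ur-13684 rests on the prde-1 pair. For the other 2, r over these 6 rests on few reads. 21ur-15587 had 1 in WT library 1 and 2 in kin-3 library 2, and 21ur-12864 at most 4 in a library. In all, 6 of the 694 had an r above 0. The 35 tested neighbours had r from -0.63 to -0.44, with a median of -0.45, the same as over all 694.

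These 5 piRNAs were chosen by their levels, which are given with no test. 21ur-10824, in the 3′ UTR of Y54F10BM.9 on its strand, stood at 11.9 and 12.04 RPM in WT and at 37.3 and 45.8 RPM in prde-1. 21ur-10492, antisense to a coding exon of F15D4.5, stood at 19.4 and 14.2 RPM in WT and at 42.2 and 35.8 RPM in prde-1. 21ur-15587, which overlaps a pseudogene's exon (antisense) and a ccct-1 intron (sense), was read once in WT and 36 and 37 times in prde-1 (6.74 and 6.60 RPM). 21ur-13684, antisense to exons of linc-59 and of an annotated pseudogene, was not read in WT and stood at 4.12 and 3.57 RPM in prde-1. 21ur-12864, sense to the 5′ UTR of clec-119, was read 4 times in WT library 2 and stood at 2.81 and 3.92 RPM in prde-1. All 5 are thus higher in both prde-1 libraries than in both WT libraries except 21ur-12864, and none comes near the prde-1 level of 21ur-1430.

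**Figure D5:**
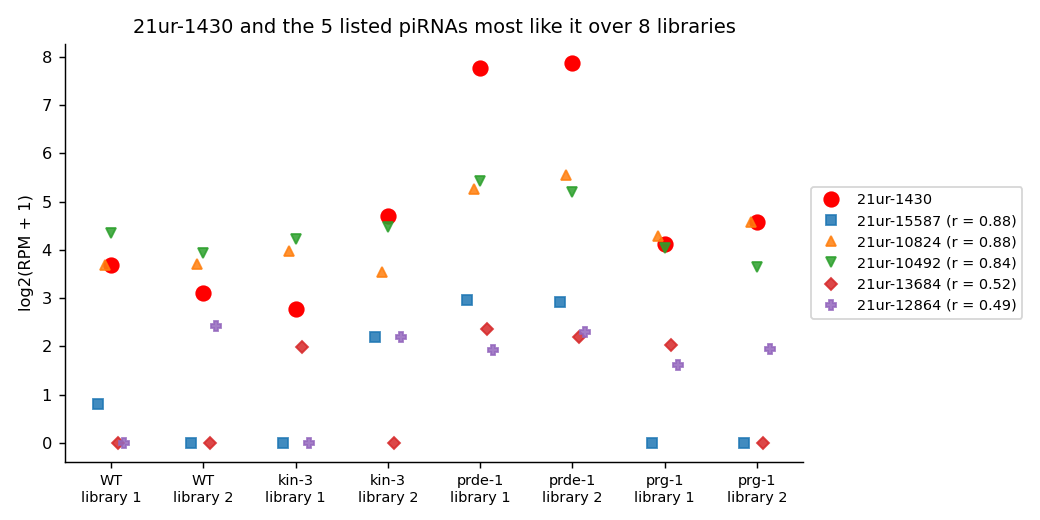
Levels as log2(RPM + 1) in each of the 8 libraries of 21ur-1430 (red circles) and of the 5 listed piRNAs with the highest Pearson's r to it; each point is 1 library, shifted sideways for legibility. In prde-1 21ur-1430 stands at 217.5 and 233.7 RPM, and the next highest of the 5 at 42.2 and 45.8 RPM.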

How the data were processed

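Per the labels' protocols, small RNAs were enriched from total RNA, treated with PIR-1, ligated to adaptors, amplified and sequenced. The tools named per the submitters' processing notes are Bowtie 1.2.1.1 and cutadapt 1.18. The authors deposited 1 table of 9742 piRNAs in RPM, with 1 column per library and 0 columns unused. Which reads the scaling total covers, how reads with several matches were treated, the build, and whether reads of the 22-nt mir-790 arm were counted at 21ur-1430 are points not given in the sources used here. All 7488 values above 0 were whole multiples of the smallest value of their library (100%, tolerance 0.01 reads), which gave reads and scaling totals.

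Positions matched piRNA genes of Ensembl release 115 (WBcel235) for 9620 of 9742 listed piRNAs and 897 of the 915 neighbours; unmatched ones keep the table's identifier. No sequence was used, so the planned motif search was not run. limma 3.58.1 in R 4.3.3 was fitted to log2(RPM + 1) of 695 piRNAs with a mean of at least 1 RPM, with genotype alone in the model, all 8 libraries and a trended prior; p-values were two-sided and adjusted by Benjamini-Hochberg over all 695 (threshold 0.05). On this scale changes of low piRNAs come out too small. The spread is shared over libraries of unequal depth, so the error of the shallow kin-3 libraries may be understated. edgeR 4.0.16 (quasi-likelihood) on the whole reads was an alternative and called 35 of 35 neighbours lower in each comparison; of all 695 it called 675 lower and 2 higher for kin-3, 683 and 6 for prde-1, and 683 and 2 for prg-1. Intervals are exact at 95% and floors are 3 reads; both cover counting error only. A chi-square test of reads gave p from 0.118 to 0.711 between libraries of a genotype. It used only piRNAs with at least 10 reads: 647 in WT, 17 in prde-1, and 4 each in prg-1 and kin-3. For the last 2 genotypes it says little.

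Named are the 3 nearest neighbours on each side, the 8 with the highest WT mean, the 12 with the highest level outside WT and the 5 piRNAs most like 21ur-1430. 21ur-5477 and 21ur-9719 were named after their values were seen. The locus, lists and tests were chosen with earlier results of these data known.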

Additional observations from a re-analysis of the deposited data

How the results depend on the processing

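No neighbour was called higher under any alternative run. Of the 35 tested, kin-3 had 32 called lower with only the 2 genotypes fitted, 33 at a pseudocount of 0.1 and 34 under TMM, and prde-1 had 34 under TMM. Without the filter 145 of 405 were called in each comparison, beside 45.3 to 45.4% of all 4878 piRNAs with a read. No such share is given for the other limma alternatives, so their counts lack a background. With a mean of 10 RPM or more required the 1 neighbour left was called in each. Within 250 kb the count was 14 of 14 in each, beside 97.8 to 98.3% of all 695 tested piRNAs. Wherever a filter was kept, neighbours passed it through WT, so a fall was favoured and these counts are no added support. Leaving out 1 library gave 14 to 40 in kin-3 and 15 to 40 in prde-1 and prg-1, lowest without WT replicate 2 (15 tested) and next without WT replicate 1 (20 in kin-3, 22 in prde-1 and prg-1, of 22 tested). In those 2 fits limma warned that its prior is unreliable, since most residual variances were 0. Deviations of libraries with the same replicate number had r from -0.03 to 0.07 between genotypes. Outside WT most tested piRNAs had 0 reads in both libraries, so this r cannot exclude a pairing. With the replicate block 35 of 35 were called in each.

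Under TMM rescaling the median log2 fold change over all piRNAs tested went from -3.06 to -1.60 in kin-3, from -3.06 to -1.57 in prde-1 and from -3.04 to -1.60 in prg-1. It moved the log2 ratio of 21ur-1430 to WT from 4.53 to 9.47 in prde-1, from 1.01 to 2.74 in prg-1 and from 0.65 to 1.43 in kin-3. That of the neighbour sum went from -9.07 to -4.11 in prde-1, from -6.69 to -4.82 in prg-1 and from -6.41 to -5.67 in kin-3. The TMM factors given above reverse the order of the 3 genotypes. Leaving out 1 library, the log2 ratio of 21ur-1430 ran from -0.74 to 1.35 in kin-3, reversed without kin-3 replicate 2, and from 4.24 to 4.88 in prde-1. The neighbour sum ran from -7.51 to -5.79 in kin-3, from -10.24 to -8.43 in prde-1 and from -7.24 to -6.30 in prg-1. For it, WT over the other libraries ran from 6.77 to 7.45 (log2) with 1 library left out; without a WT library (7.06 and 6.95) the smallest exact permutation p is 0.143, above the threshold. The WT share of 21ur-1430 was 3.13% within 250 kb. The 11 tested named neighbours passed the filter through WT, so a fall was favoured and calls kept under alternatives are no added support. None reversed in direction, and 21ur-1022 and 21ur-9127 lost the call under some alternatives. The alternative without a filter for the piRNAs on microRNA hairpins was chosen after seeing the data and made 0 calls (1 tested). Depth limits the kin-3 values most, where 1 read is worth up to 2.93 RPM.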
